A study of Mus musculus with 11 samples.

Results

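The genes described here encode subunits of the Mediator complex and of RNA polymerase II, and TBP-associated factors (TAFs). They are the 51 genes, of 15803 measured, whose symbol in the platform annotation starts with Med or Taf followed by a digit, or with Polr2; Taf15, an RNA-binding protein of another family, was left out. The set holds 28 Med, 9 Polr2 and 14 Taf genes, measured by 619 probe sets. It does not hold every subunit: Med13, Polr2c, Taf1 and Taf4, for example, are absent. Counts by role therefore cover only the genes in the set. It was defined by gene symbol, with earlier results of these data known. Mediator is a large coactivator with a head, a middle, a tail and a detachable kinase module; it carries signals from DNA-bound activators to RNA polymerase II at the promoter. The TAFs together with the TATA-binding protein form TFIID, which recognises the core promoter, while some TAFs also serve in the histone acetyltransferase complex SAGA or in SL1, the selectivity factor of RNA polymerase I. Nearly every messenger RNA of a cell, neurons included, depends on this machinery, and inherited variants in several Mediator genes are known causes of neurodevelopmental disorders.

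RNA came from NSC34 cells, a mouse hybrid of neuroblastoma and embryonic spinal cord cells that is used as a model of motor neurons. All lines, controls included, had received a pSUPERIOR hairpin vector by lipofection and were stable clones selected with puromycin. Tardbp was targeted in 4 samples (shTardbp 1 to 4); the controls were 4 samples whose hairpin targets GFP (shGFP 1, 2, 3 and 5) and 3 whose hairpin targets Renilla luciferase (shLuciferase 1, 2 and 4). Tardbp encodes TDP-43, a nuclear RNA-binding protein that leaves the nucleus of affected motor neurons in amyotrophic lateral sclerosis, and the series asks how its depletion alters transcripts and their splicing. The labels give no strain, age or time after selection, and 1 hairpin sequence represents the Tardbp knockdown. Nothing in them tells if arrays within a group stem from different clones or cultures; the p-values therefore reflect sample-to-sample spread, possibly of a technical kind only. In such bulk RNA, fewer cells with a transcript and less of it per cell cannot be told apart.

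A gene's value is the mean log2 signal of its probe sets on an array, and array medians lay between 6.82 and 6.92. Tardbp stood at 8.82, 8.80, 8.997 and 8.91 in shTardbp and between 9.08 and 9.42 in the 7 control arrays, so the groups did not overlap. Its difference was -0.40 ± 0.0722 (log2 ± SE; limma adjusted p = 0.000713), which leaves 75.8% of the control signal, and the exact two-sided permutation test of 4 against 7 arrays gave p = 0.00303, the smallest that 330 splits allow. Of the markers checked, 11 neuronal genes had signals of 8.79 to 12.01, while the 8 motor neuron genes were spread widely: Prph (12.44), Slc18a3 (9.60), Isl1 (8.17), Isl2 (7.09) and Lhx3 (4.84) lay above and Chat (4.26), Mnx1 (4.09) and Slc5a7 (4.05) below the 25th percentile of probe sets, which was 4.46 to 4.57 on the arrays. The 8 glial markers lay at 4.06 to 5.31, and of 8 fibroblast markers Dcn (-1.61) and Pdgfra (-0.92) fell while Pdgfrb rose (0.41); their part in the results below was not tested. Among the other markers 1 of 11 neuronal genes fell and 1 rose, 2 of 8 motor neuron genes, 1 of 8 glial genes and 1 of 10 muscle, epithelial and endothelial genes rose. By the same limma threshold, an adjusted p under 0.05, 17% of all genes fell and 13.5% rose. Of genes above the median signal, where the neuronal markers lie, 27.1% fell and 19.7% rose. The array codes in the labels open with P for the 4 shTardbp arrays and shLuciferase 4 and with C for the other 6 arrays, and what the letters stand for is not given.

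Compared with both control groups, 19 of the 51 genes fell in shTardbp and 0 rose, at an adjusted p under 0.05 (limma, Benjamini-Hochberg over all 15803 genes); at an unadjusted p under 0.05 there were 21 lower and 1 higher. That no member rose depends on single arrays: Taf13 passed as higher without shTardbp 4 (0.38, adjusted p = 0.0425), without shGFP 5 (0.35, 0.0278) and with a replicate block (0.38, 0.00915). This count has to be read against a wide background, since 30.5% of all genes passed the same test, 17% lower and 13.5% higher; among the members 37.3% passed, all of them lower. The median change was -0.12 over the 51 genes and 0.0072 over all genes, and 35 of the 51 lay below 0. Most of these genes are well measured, and among the 47 above the median signal 40.4% fell, against 27.1% of the 7901 genes of that kind, of which 46.8% passed in all and 19.7% were higher. The falls were modest, from 1.13-fold to 1.59-fold, with Med9, a subunit of the Mediator middle, at the far end. In 12 of the 51 genes (23.5%) every shTardbp array lay below every control array, compared with 18.3% of all genes that did not overlap in either direction. Among genes above the median signal, 25.5% of the 47 members and 28.4% of the 7901 genes did not overlap in either direction.

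The families differed in their counts, which were not tested against each other. Of the Mediator genes 12 of 28 fell (42.9%, median -0.15), of the Taf genes 5 of 14 (35.7%, median -0.15) and of the Polr2 genes 2 of 9 (22.2%, median 0.05). Inside Mediator 4 of 7 head genes fell, 4 of 4 in the Med27 to Med30 group and 3 of 9 in the middle. Of all genes above the median signal, 27.1% fell. Against both controls 0 of 5 tail genes and 0 of 2 kinase module genes passed. At an unadjusted p under 0.05, 1 tail gene and 0 kinase module genes were lower. Under 1 other setting each, Med15 of the tail and Med13l of the kinase module passed as lower and Med23 of the tail as higher. The 32 members that did not pass had changes between -0.21 and 0.30, with a median near 0 (0.00087). The genes that fell were covered by fewer probe sets than the rest, with a median of 6 against 9.5, and had a median signal of 8.18 against 9.06.

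**Figure D1:**
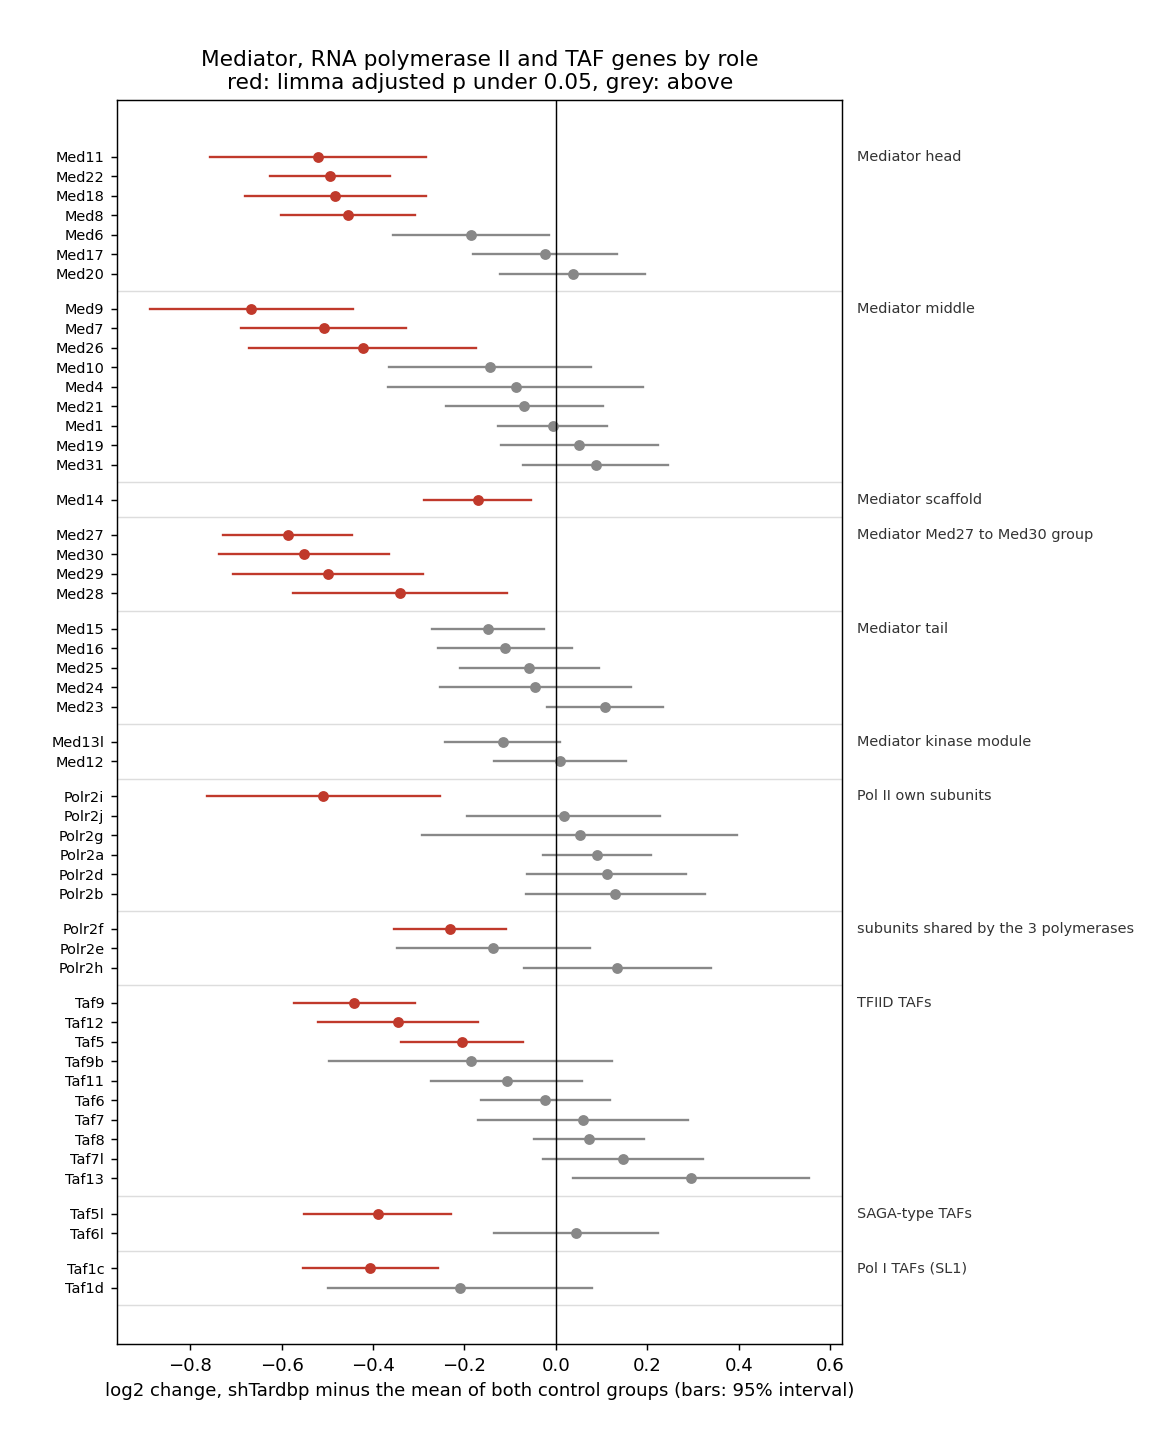
Change of each of the 51 genes in shTardbp against both control groups (log2, horizontal axis; points are limma estimates, bars their unadjusted 95% intervals), ordered by role; red genes passed an adjusted p under 0.05. All 19 red points lie left of 0, 4 of them in the Mediator head and 4 in the Med27 to Med30 group, and none lies in the Mediator tail or kinase module.

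The promoters of the genes with the smallest adjusted p are shown here, apart from Med8, so that the letters counted over all members can be seen in place. Each line gives the 200 bases before the RefSeq transcription start in GRCm38.p6, 5′ to 3′ on the gene's strand, for the start farthest upstream where there are several. Capitals mark matches, on either strand, to any of 7 motifs: the ETS core, searched as CCGGAAG; the GC box, searched as GGGCGG; the box named CCAAT after its letters; the TATA box, searched as the letters TATAAA; and the sites of YY1, searched as AAGATGG, of E2F, searched as TTCCCGC, and of CREB (CRE), searched as TGACGTCA. The Med27 promoter lies at chr2:29346610-29346809 (plus strand), that of Med22 at chr2:26910643-26910842 (minus strand), that of Taf9 at chr13:100651143-100651342 (plus strand) and that of Med9 at chr11:59948014-59948213 (plus strand).
Med27: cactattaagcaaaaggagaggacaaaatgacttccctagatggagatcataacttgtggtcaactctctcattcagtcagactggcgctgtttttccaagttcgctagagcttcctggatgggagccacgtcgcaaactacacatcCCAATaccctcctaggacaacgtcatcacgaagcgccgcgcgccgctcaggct
Med22: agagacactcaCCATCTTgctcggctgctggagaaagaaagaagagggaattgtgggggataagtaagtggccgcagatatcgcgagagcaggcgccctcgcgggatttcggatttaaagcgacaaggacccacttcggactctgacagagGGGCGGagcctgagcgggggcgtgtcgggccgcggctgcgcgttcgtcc
Taf9: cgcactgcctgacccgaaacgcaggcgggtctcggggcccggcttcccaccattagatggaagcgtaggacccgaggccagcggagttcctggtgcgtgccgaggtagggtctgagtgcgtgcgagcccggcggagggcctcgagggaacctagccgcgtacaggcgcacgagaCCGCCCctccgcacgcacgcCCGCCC
Med9: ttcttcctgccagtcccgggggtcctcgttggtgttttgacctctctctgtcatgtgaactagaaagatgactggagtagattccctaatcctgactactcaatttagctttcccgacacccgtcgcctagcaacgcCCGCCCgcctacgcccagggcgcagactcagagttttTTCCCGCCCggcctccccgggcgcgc

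Med27 held a CCAAT box, Med22 a YY1 match and a GC box, Taf9 GC boxes only, and Med9 a GC box and an E2F match that overlaps another GC box. RefSeq promoters were found for 44 of the 51 genes, 55 starts in all. A GC box lay in 63.6% of these 55 windows and in 31% of all 32851 promoter windows of this length, and the ETS letters in 21.8% and 6.29%. CpG-rich starts were common among the members, with a median of 14 CpG in 200 bases against 5 over all promoters. The genes that fell and the other members are set side by side here: 68.2% of 22 windows of the first kind and 60.6% of 33 of the second held a GC box, and 18.2% and 24.2% held the ETS letters. The CCAAT box was found in 36.4% of the windows of genes that fell, in 21.2% of the others and in 29.3% of all promoters, and the TATA letters in 4.55%, 15.2% and 9.96%. YY1 letters were in 5.45% of the members' windows (3.45% of all), E2F in 7.27% (3.28%) and CRE in 3.64% (1.47%). These are descriptions of letters and were not tested.

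All 4 genes of the Med27 to Med30 group, subunits at the junction of head and tail that are found in animals, fell in shTardbp. Med27 had the smallest adjusted p of the set. Its values were 9.26, 9.50, 9.46 and 9.44 in shTardbp, 9.91, 9.999, 9.93 and 9.76 in shGFP and 10.15, 10.05 and 10.12 in shLuciferase. Every shTardbp array lay below every control array, and the difference was -0.59 ± 0.0656 (limma adjusted p = 1.42e-05), with -0.48 against shGFP and -0.69 against shLuciferase. Med30 read 6.31, 6.52, 6.24 and 6.13 in shTardbp, 6.997, 7.02, 6.71 and 6.79 in shGFP and 6.90, 6.89 and 6.69 in shLuciferase. Its groups were apart as well, with a change of -0.55 ± 0.0863 (limma adjusted p = 0.000233). Med29, which rests on 2 probe sets, changed by -0.50 (limma adjusted p = 0.00119). Its probe set 5194793 (mean signal 9.20) changed by -0.78 (limma adjusted p = 0.0011). The other, 5378079 (4.14, below the 25th percentile), changed by -0.22 and did not pass (0.412). Med28 was the weakest of the group and depended on the control: -0.34 against both (limma adjusted p = 0.0277), but -0.08 (adjusted p = 0.721) against shGFP and -0.60 (adjusted p = 0.00378) against shLuciferase. It lost its call without shTardbp 1 (-0.25, adjusted p = 0.113), shTardbp 2 (-0.32, 0.0708) or shLuciferase 2 (-0.29, 0.0677).

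In the head, the module that contacts the polymerase and its promoter factors, 4 of 7 genes fell and the median change was -0.45. Med22 was at 7.07, 7.20, 7.12 and 6.99 in shTardbp, 7.44, 7.53, 7.65 and 7.46 in shGFP and 7.64, 7.65 and 7.67 in shLuciferase. The shLuciferase arrays were nearly identical to each other, no shTardbp array reached any control, and the change was -0.49 ± 0.0610 (limma adjusted p = 3.26e-05). Med8, which anchors the Med18 and Med20 pair to the rest of the head, read 6.76, 6.63, 6.48 and 6.69 in shTardbp, 6.997, 7.08, 6.99 and 6.95 in shGFP and 7.22, 7.29 and 7.05 in shLuciferase. It fell by 0.45 ± 0.0679 on the log2 scale (limma adjusted p = 0.000158) with no overlap. Med18 was more scattered, at 7.24, 7.67, 7.32 and 7.46 in shTardbp, 7.67, 7.89, 7.89 and 7.69 in shGFP and 8.15, 8.12 and 7.83 in shLuciferase. Here shTardbp 2 and shGFP 1 overlapped, and the change was -0.48 ± 0.0920 (limma adjusted p = 0.00107). Med11, the partner of Med22 in the head, changed by -0.52 (limma adjusted p = 0.00227). The direct partner of Med18, Med20, did not pass, with a difference of 0.04 and a 95% interval of -0.12 to 0.20. Med17, the largest head subunit, stood at -0.02 (95% interval -0.18 to 0.13), and Med6 at -0.19 (-0.36 to -0.02, limma adjusted p = 0.0995).

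The middle, which links head and tail and helps to recruit the polymerase, had 3 lower genes of 9. Med9 was at 8.29, 8.18, 8.01 and 8.01 in shTardbp, 8.92, 9.07, 8.88 and 8.48 in shGFP and 8.80, 8.84 and 8.58 in shLuciferase. With shGFP 5 and shLuciferase 4 the lowest of the controls, the groups still did not overlap, and the change was -0.67 ± 0.103 (limma adjusted p = 0.00021). Med7, the partner of Med21 and Med31, read 8.11, 8.05, 8.13 and 8.23 in shTardbp, 8.33, 8.73, 8.70 and 8.38 in shGFP and 8.64, 8.82 and 8.77 in shLuciferase, a change of -0.51 ± 0.0836 (limma adjusted p = 0.000347). Neither Med21 nor Med31 passed, with -0.07 for Med21 (95% interval -0.24 to 0.10) and 0.09 for Med31 (-0.07 to 0.25). Med26, which docks elongation factors, changed by -0.42 (limma adjusted p = 0.0117), and without shTardbp 3 it was -0.35 (adjusted p = 0.0518). Med1, the subunit bound by nuclear receptors, was the middle gene nearest to 0, at -0.01 with a 95% interval of -0.13 to 0.11. Med14, the scaffold that holds the modules together and the member with 36 probe sets, changed by -0.17 (limma adjusted p = 0.0274). That small fall lost its call without shTardbp 2 (-0.15, adjusted p = 0.0923), shTardbp 3 (-0.16, 0.0875), shGFP 3 (-0.16, 0.0544) or shLuciferase 1 (-0.16, 0.0605), and with a replicate block (-0.18, 0.0640).

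The tail, where most activators bind, had no gene past the threshold against both controls. The changes were -0.15 for Med15, -0.11 for Med16, -0.06 for Med25, -0.04 for Med24 and 0.11 for Med23, and their 95% intervals lay within -0.27 (Med15) and 0.23 (Med23). Med15, at an adjusted p of 0.0676, was the member nearest to the threshold on its outer side. Med28, at 0.0277, was the nearest on its inner side. When only genes above the median signal were fitted, Med15 passed as lower (-0.15, limma adjusted p = 0.0441). Med23 passed as higher with the code letter as a block (0.31, limma adjusted p = 0.0290). Against shLuciferase alone Med16 was lower (-0.31, limma adjusted p = 0.0126). In the kinase module, a reversible brake on Mediator, Med12 stood at 0.01 (95% interval -0.14 to 0.15) and Med13l at -0.12 (-0.24 to 0.01). Med13l passed as lower with array weights (-0.14, limma adjusted p = 0.0439) and against shLuciferase alone (-0.29, 0.00773). Against both controls the kinase Cdk8 (0.04) and its paralog Cdk19, listed as Cdc2l6 (-0.10), did not pass. Cyclin C, their partner and the product of Ccnc, did: it read 8.80, 8.72, 8.96 and 9.03 in shTardbp, 9.33, 9.54, 9.51 and 9.27 in shGFP and 9.39, 9.38 and 9.53 in shLuciferase. Ccnc thus fell by 0.55 ± 0.0774 on the log2 scale (limma adjusted p = 9.98e-05) with no overlap.

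**Figure D2:**
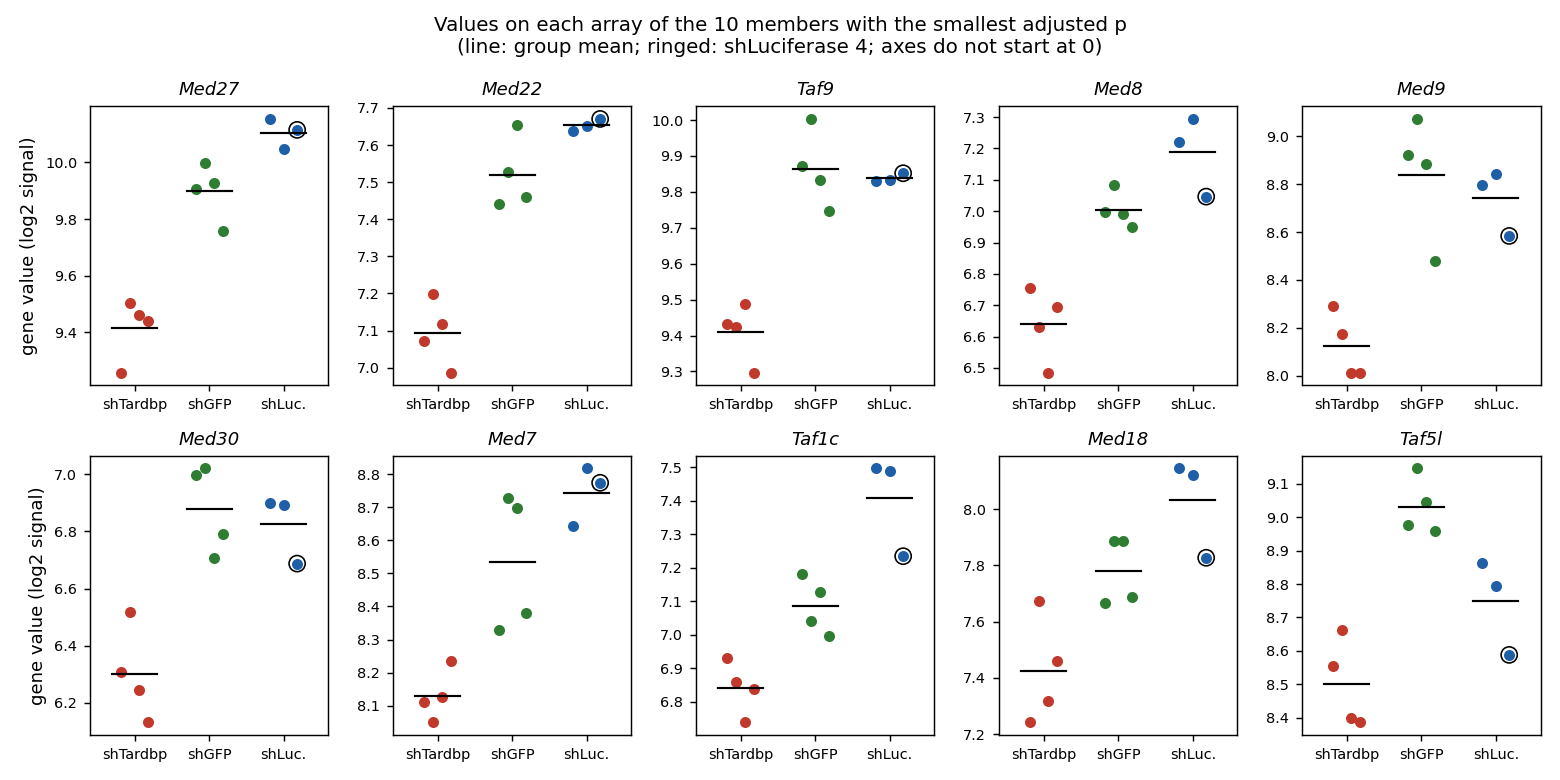
Value of the 10 genes with the smallest adjusted p on each of the 11 arrays (log2 signal, vertical axes do not start at 0; lines are group means; shLuciferase 4 is ringed). The 4 shTardbp points lie below all 7 control points in 8 of the 10 genes, with overlap in Med18 and Taf5l.

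Among the polymerase's own subunits 1 of 6 genes fell, and the median change was 0.07. Polr2i, the small subunit RPB9 that bears on transcript cleavage and fidelity, changed by -0.51 (limma adjusted p = 0.00446), and its groups overlapped, with shGFP 5 at 6.59 and shTardbp 2 at 6.73. Polr2a, the largest subunit with the C-terminal repeat domain, read 10.87, 10.82, 10.95 and 10.86 in shTardbp, 10.57, 10.64, 10.59 and 10.54 in shGFP and 11.08, 10.96 and 10.91 in shLuciferase. The shTardbp arrays lay above every shGFP array and overlapped with shLuciferase, where shLuciferase 4 was below shTardbp 3; the change against both was 0.09 (95% interval -0.03 to 0.21). Polr2b, which completes the catalytic centre with Polr2a, was at 0.13 (-0.06 to 0.33), Polr2d at 0.11 (-0.06 to 0.29), Polr2g at 0.05 (-0.29 to 0.40) and Polr2j at 0.02 (-0.19 to 0.23). Of the subunits shared by the 3 polymerases, Polr2f (RPB6) was the brightest member of the whole set, a rank that depends on its probes as well as on its transcript. It read 12.03, 12.10, 12.03 and 12.04 in shTardbp, 12.24, 12.23, 12.25 and 12.18 in shGFP and 12.28, 12.26 and 12.48 in shLuciferase. The fall was small, -0.23 ± 0.0568 (limma adjusted p = 0.00635), yet no array overlapped; against shGFP alone it was -0.17 (adjusted p = 0.0594). Polr2e changed by -0.14 (-0.35 to 0.07), and Polr2h was measured by 1 probe set at a mean of 3.03, under the 25th percentile of every array, so its difference of 0.13 is not one between levels above background.

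Of the 10 TFIID genes 3 fell, and the median change was -0.07. Taf9, a histone-fold subunit of both TFIID and SAGA, read 9.43, 9.42, 9.49 and 9.30 in shTardbp, 9.87, 10.003, 9.83 and 9.75 in shGFP and 9.83, 9.83 and 9.85 in shLuciferase. The control groups had nearly the same mean, the shTardbp arrays all lay below them, and the change was -0.44 ± 0.0615 (limma adjusted p = 8.86e-05). Taf12, another histone-fold subunit of both complexes, changed by -0.35 (limma adjusted p = 0.00479), and the WD40 subunit Taf5 by -0.20 (limma adjusted p = 0.0211). Taf5 lost its call without shTardbp 1 (-0.17, adjusted p = 0.0757) or shLuciferase 1 (-0.19, adjusted p = 0.0501). The histone-fold partner of Taf9, Taf6, stood at -0.02 (95% interval -0.16 to 0.12). Taf13, with 1 probe set, had the highest value of all members, 0.30 (0.04 to 0.55, limma adjusted p = 0.0816), and passed without shTardbp 4 or shGFP 5. Taf7 (mean signal 5.60) and its germ-cell paralog Taf7l (4.30, with 9 of 12 probe sets below the arrays' 25th percentile) were the dimmest genes beside Polr2h, and neither passed, at 0.06 and 0.15.

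Taf5l, the SAGA counterpart of Taf5, fell while Taf6l, the counterpart of Taf6, stood at 0.04 (95% interval -0.14 to 0.22). Taf5l was at 8.56, 8.66, 8.40 and 8.39 in shTardbp, 8.98, 9.15, 9.05 and 8.96 in shGFP and 8.86, 8.79 and 8.59 in shLuciferase. It changed by -0.39 ± 0.0747 against both controls (limma adjusted p = 0.00113), by -0.53 against shGFP and by -0.25 against shLuciferase, where it missed the threshold (adjusted p = 0.0609) and shLuciferase 4 overlapped with shTardbp 2. Taf1c, a subunit of SL1 that serves ribosomal RNA genes, read 6.93, 6.86, 6.74 and 6.84 in shTardbp, 7.18, 7.04, 7.13 and 6.995 in shGFP and 7.497, 7.49 and 7.23 in shLuciferase. All groups were apart from shTardbp, with a change of -0.41 ± 0.0683 (limma adjusted p = 0.000418), -0.25 against shGFP and -0.57 against shLuciferase. Taf1d, also of SL1, was at -0.21 with a wide interval (-0.50 to 0.08).

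Taken 1 at a time, the controls gave different counts, and the comparisons share the shTardbp arrays. Against shGFP 16 members fell and 1 rose, where 27.9% of all genes passed (15.5% lower, 12.4% higher); against shLuciferase 19 fell and 0 rose, where 26.1% passed (14.3% lower, 11.8% higher). Among genes above the median signal, 34% of the 47 members and 24.5% of the 7901 genes were lower against shGFP. Against shLuciferase these shares were 40.4% and 23.2%. At an unadjusted p under 0.05, 2 members were higher against shLuciferase. The median change of the members was -0.06 against shGFP and -0.18 against shLuciferase. The gene that rose was Polr2a, by 0.29 ± 0.0618 against shGFP (limma adjusted p = 0.0028), with -0.11 (adjusted p = 0.293) against shLuciferase. With the replicate number as a block, Taf13 (0.43, limma adjusted p = 0.0146) and Polr2b (0.36, 0.0419) also passed as higher against shGFP and Taf1c lost its call there (-0.25, 0.0563); between the controls Med13l, Med28 and Taf1c lost theirs (adjusted p 0.0615 to 0.0916). The control groups also differed from each other: 6 of the 51 genes (11.8%) were lower in shGFP than in shLuciferase and 0 higher, where 11.1% of all genes passed, 4.82% lower and 6.26% higher; at an unadjusted p under 0.05, 2 members were higher. These 6 were Polr2a (-0.40, limma adjusted p = 0.00154), Med13l (-0.35, 0.00611), Med16 (-0.40, 0.00654), Taf9b (-0.81, 0.00827), Med28 (-0.51, 0.0218) and Taf1c (-0.32, 0.0227). Taf9b is a close paralog of Taf9, and whether the probe sets separate them was not tested; it read 8.90, 9.12, 9.05 and 8.71 in shGFP and 9.64, 9.44 and 10.18 in shLuciferase, beside 8.89, 8.96, 9.49 and 9.31 in shTardbp, with shLuciferase 4 the highest of all. Med16, a tail subunit, read 8.74, 8.78, 8.83 and 8.72 in shTardbp, 8.56, 8.83, 8.74 and 8.61 in shGFP and 9.21, 9.06 and 8.97 in shLuciferase, so that shTardbp and shGFP overlapped and shLuciferase stood above both. Med13l, of the kinase module, had the same order, with 9.20, 9.14, 9.14 and 9.13 in shTardbp, 8.99, 9.20, 9.17 and 9.02 in shGFP and 9.50, 9.43 and 9.39 in shLuciferase.

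The code letter of the arrays divides the samples almost as the hairpins do, since shLuciferase 4 is the only control array with a P. The block is therefore estimated from shLuciferase 4 against shLuciferase 1 and 2 alone, and the calls kept or lost rest on that array. Among the array weights, that of shLuciferase 4 was the lowest (0.316) and that of shLuciferase 1 the highest (2.28). With the letter as a block, 9 members passed, 8 lower and 1 higher, where 15.9% of all genes passed (8.14% lower, 7.74% higher). Of the 19 falls, 6 kept their call: Med22, Med27, Med29, Med7, Taf9 and Polr2f, with adjusted p between 0.00654 and 0.0404. The other 13 lost it, at -0.47 to -0.08 and adjusted p between 0.125 and 0.738, while the sign stayed negative in all 19; the median SE grew from 0.0814 to 0.158. The block gave the 19 genes a median of 73.6% of their change without it. Med6 (-0.51, limma adjusted p = 0.00898), Taf9b (-0.72, 0.0485) and Med23 (0.31, 0.0290) passed only with the block. Tardbp itself changed to -0.29 (limma adjusted p = 0.173). With the block the median change was -0.06 over all genes and -0.12 over the members. Within the P arrays, the shTardbp mean lay below shLuciferase 4 for 36 of the 51 members, and all 4 shTardbp arrays lay below it in 25 and above it in 8. These counts were not made over all genes, so they cannot be read as particular to the members. The 19 genes that fell are among the 36, but they were chosen with these same arrays, so that adds nothing to their calls; a single control array carries the comparison, and it has no test.

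**Figure D3:**
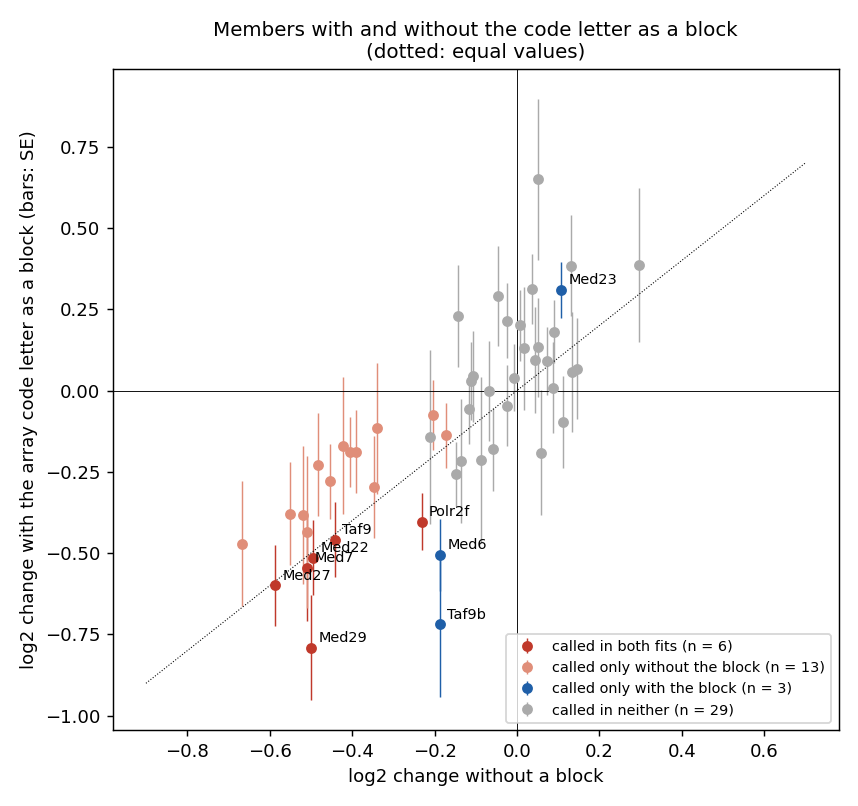
Change of each of the 51 genes in shTardbp against both controls without a block (horizontal, log2) and with the arrays' code letter as a block (vertical, log2; bars are SE); the dotted line marks equal values. Dark red marks the 6 genes called in both fits, light red the 13 called only without the block and blue the 3 called only with it; all 19 red points lie below 0 on both axes.

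Members were also set beside the genes that surround them in the RefSeq gene order, up to 20 measured genes on each side. For 17 of the 19 genes that fell, more neighbours fell than rose. The same held for 7 of the other 32 members and for 54.5% of the 15740 placed genes, whether these fell or not. These shares were not tested, and the windows are not independent. Med18 and Taf12, which both fell, share 37 neighbours, and Polr2g and Taf6l, which did not pass, share 38. Among the 19, the exceptions were Taf5 (1 lower and 11 higher neighbours, median 0.07) and Med11 (3 and 8, median 0.06). Taf1c (6 and 5) was nearly even. In the typical window of a gene that fell 11 neighbours were lower and 4 higher (medians), against 6 and 4 over all placed genes. The windows with the most lower genes were these. Of 40 neighbours of Med22, which lies between Surf6 and Surf1, 23 fell, 2 rose and the median stood at -0.21, and of the 40 neighbours of Med27, between Ttf1 and Rapgef1, 21 fell, 3 rose and the median stood at -0.26; the windows share 9 genes. Med29, between Zfp36 and Paf1, had 17 lower neighbours (median -0.14) and Med9, between Nt5m and Rasd1, 15 (median -0.13). With the median of the neighbours subtracted on each array, Med22 was at -0.28 (limma adjusted p = 0.0034), Med27 at -0.34 (0.00123), Med29 at -0.34 (0.031) and Med9 at -0.53 (0.000418). In all, 16 members passed after the subtraction, all lower, where 28.5% of 15740 placed genes passed (15.1% lower, 13.4% higher); Med14, Med26, Med28 and Polr2f lost their calls and Taf7 gained one. Taf7 is the reverse case: it lies beside the protocadherin cluster, where 32 of its 40 neighbours rose and 0 fell, with a median of 0.56, and after subtraction it stood at -0.43 (limma adjusted p = 0.00697) in place of 0.06. Taf12 and Med18 are themselves neighbours, on either side of Rcc1, and stood at -0.29 and -0.48 after subtraction. Polr2g and Taf6l lie side by side, and neither passed.

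**Figure D4:**
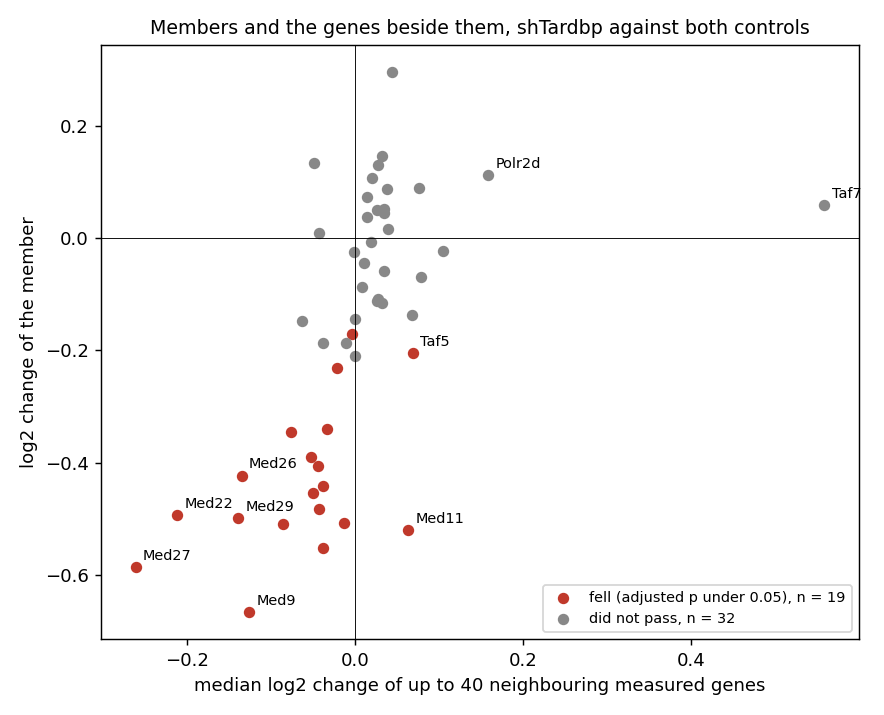
Change of each member in shTardbp against both controls (vertical, log2) and the median change of up to 40 measured genes around it (horizontal, log2), 1 point per gene; red genes fell. Med27 and Med22 have the lowest neighbour medians, -0.26 and -0.21, and Taf7 the highest, 0.56.

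TDP-43 is a splicing regulator, so single probe sets were compared with the other probe sets of their gene; the files used here give no exon for a probe set. In 46 members 586 probe sets could be tested, and 2 of them (0.341%) deviated, where 0.879% of 101898 probe sets passed (0.45% lower, 0.429% higher). Both belong to genes that fell, and their own differences, -0.19 in Med22 and -0.11 in Taf9, were nearer to 0 than those of the genes. Both are also brighter than the mean signal of their gene, which was 7.40 for Med22 and 9.69 for Taf9. Whether signal level bears on their differences was not tested. In Med22 probe set 4397268 read 8.86, 9.08, 8.95 and 8.79 in shTardbp, 9.03, 9.04, 9.29 and 9.11 in shGFP and 9.13, 9.01 and 9.17 in shLuciferase, while the mean of the gene's other probe sets was 6.83, 7.29 and 7.45 in the 3 groups. The difference in usage was 0.35 ± 0.0655 (limma adjusted p = 0.0360). In Taf9 probe set 4593443, at 12.38, 12.48, 12.58 and 12.51 in shTardbp, 12.65, 12.62, 12.51 and 12.39 in shGFP and 12.58, 12.65 and 12.71 in shLuciferase, the usage difference was 0.40 ± 0.0769 (limma adjusted p = 0.0399). The next were 1 probe set each of Med8 (5029641, 0.67, adjusted p = 0.0581), Taf12 (4895821, 0.30, 0.0743) and Med11 (5211830, 0.32, 0.0821), which did not pass. Neither of the 2 passed limma's diffSplice (adjusted p = 0.318 in Med22 and 0.139 in Taf9), which called others instead: 4531476 (adjusted p = 0.00793) and 4685668 (0.0222) of Med8 and 5583832 of Med27 (0.0353). A share of 2 in 46 genes (4.35%) compares with 7.48% of all genes tested.

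The rest of the transcription machinery was counted in the same comparison, in lists written with earlier results of these data in view, against the 17% lower and 13.5% higher of all genes. Each list had a median signal above that of all genes. Of the genes above the median signal 27.1% were lower and 19.7% higher, which is the closer background for these lists. Of 18 general transcription factor genes 7 fell and 1 rose (median -0.14); Gtf2e1 of TFIIE (-0.41, limma adjusted p = 0.000561), the TFIIH helicase gene Ercc2 (-0.36, 0.000683) and Gtf2f2 of TFIIF (-0.38, 0.000755) had the smallest p-values, and Gtf2a1 of TFIIA rose by 0.49 (0.00431). The gene of the TATA-binding protein, Tbp, was at -0.12 (95% interval -0.28 to 0.04). Of 29 genes of pausing and elongation 8 fell and 4 rose (median -0.07), among them Rdbp (-0.60, limma adjusted p = 2.93e-05) and Cobra1 (-0.48, 6.36e-05), subunits of the pausing factor NELF; Ell2 had the smallest p-value (-0.64, 2.38e-05) at a low mean signal of 4.73. The Ccnc fall gave the list of Mediator kinases and cyclin 1 of 3.

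Of 18 genes of C-terminal domain kinases, phosphatases and polymerase assembly 4 fell and 3 rose (median -0.04), led by Rprd1a, a reader of the repeat domain, at 0.84 ± 0.122 (limma adjusted p = 0.000121). Rpap1, which helps to assemble the polymerase, rose by 0.38 (limma adjusted p = 0.000782) and the small phosphatase gene Ctdspl by 0.26 (0.00154). Rprd1a read 9.03, 8.98, 9.21 and 9.26 in shTardbp, 7.83, 8.36, 8.37 and 8.44 in shGFP and 8.18, 8.13 and 8.60 in shLuciferase, with no overlap. In Integrator, which cleaves nascent transcripts of the polymerase, 4 of 12 fell and 1 rose (median -0.07), with Cpsf3l, its endonuclease, at -0.32, Ints7 at -0.34 and Ints9 at -0.23. Of 11 SAGA genes outside the Taf family 4 fell and 2 rose (median -0.05): Eny2 changed by -0.35, Ccdc101 by -0.42 and Tada3l by 0.29.

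The other polymerases differed in their counts. Of 8 RNA polymerase I genes 6 fell and 0 rose (median -0.32), and at an unadjusted p under 0.05, 0 were higher. The count depended on the control. Against shGFP 3 fell (median -0.19), where 15.5% of all genes and 24.5% of those above the median signal were lower. Against shLuciferase 5 fell (median -0.40), where 14.3% of all genes and 23.2% of those above the median signal were lower. Between the controls 2 were lower in shGFP, where 4.82% of all genes and 7.51% of those above the median signal were lower. Polr1e read 7.29, 7.45, 7.33 and 7.51 in shTardbp, 7.64, 7.90, 7.66 and 7.65 in shGFP and 8.23, 8.44 and 8.31 in shLuciferase, a change of -0.62 ± 0.0720 (limma adjusted p = 1.95e-05) in which the controls stood apart as well. Twistnb, the stalk subunit, changed by -0.42 (limma adjusted p = 0.000496) and Znrd1 by -0.37 (0.0206). Of 12 RNA polymerase III genes 2 fell and 2 rose (median -0.10), and its alternative subunits moved in opposite directions: Polr3gl rose by 0.49 (limma adjusted p = 0.000294) and Polr3g fell by 0.31 (0.00532). Brf1, of the initiation factor TFIIIB, rose by 0.29 (limma adjusted p = 0.0127).

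**Figure D5:**
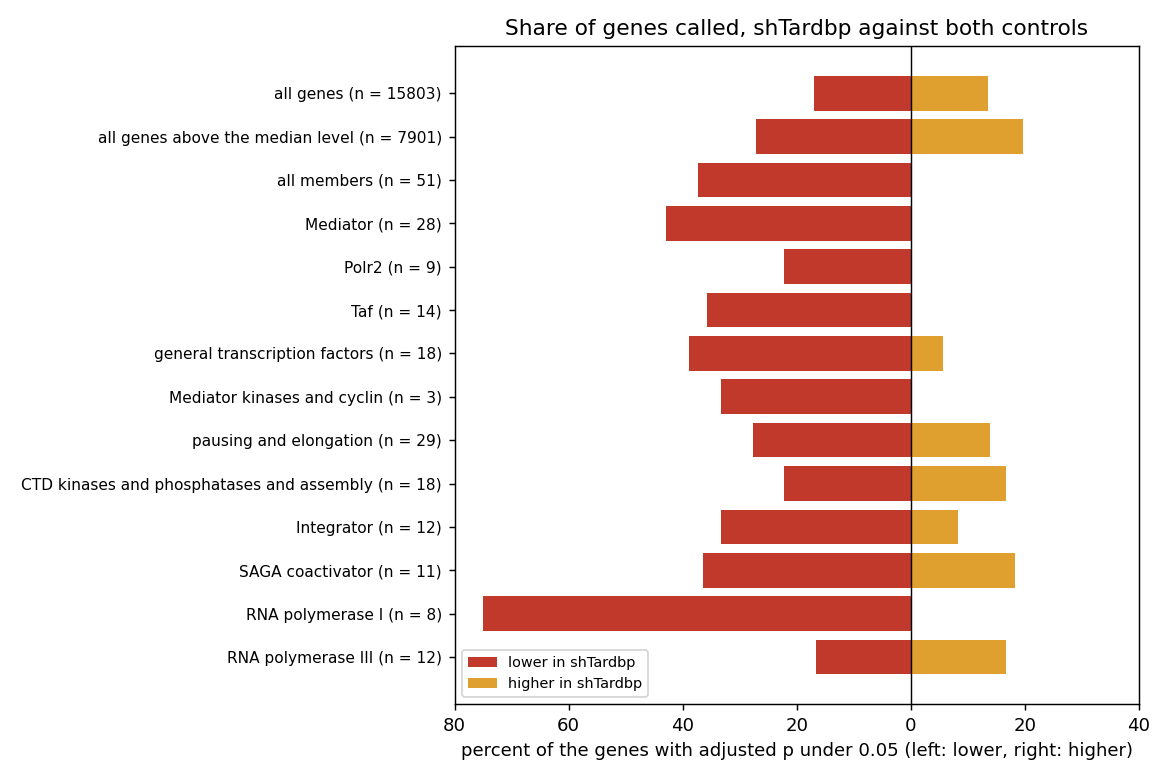
Percent of genes with an adjusted p under 0.05 in shTardbp against both controls, lower to the left and higher to the right, for all genes, the members and their families and the other lists; n is the number of genes measured. The members reach 37.3% lower and 0 higher, beside 17% and 13.5% of all genes and 27.1% and 19.7% of genes above the median signal.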

How the data were processed

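RNA of 11 NSC34 samples was measured on Affymetrix whole-transcript arrays. The deposited values are log2 signals of 194293 probe sets, made with Partek and RMA per the submitters' processing notes. Versions, settings and build: not given in the sources used here. Per the platform annotation, 179496 probe sets had 1 gene symbol, 1328 several and 13469 none, and only the first kind was used. Symbols can be old, and members not listed under a matching symbol were not analysed here. RefSeq tables (GRCm38.p6) served for gene order and promoters.

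Gene values are means over probe sets. With limma 3.58.1 in R 4.3.3 (lmFit, eBayes), all 11 arrays entered 1 model with 3 groups and no filter on low values. The shTardbp group was compared with the average of both control means and with each control alone, and shGFP with shLuciferase; Benjamini-Hochberg adjustment ran across all genes (threshold 0.05). Errors are SE, and intervals are unadjusted. Usage is a probe set minus the mean of its gene's other probe sets, for genes above the median signal with at least 3 probe sets above the 25th percentile. Precision is limited by the number of arrays. As a check of pairing by replicate number, deviations from group means were correlated between arrays: 5 of 8 same-numbered pairs exceeded 0.1 (range -0.06 to 0.26), as did 8 of 32 others. All 3 same-numbered pairs of shTardbp and shGFP exceeded it (0.12, 0.20 and 0.20), so these may be paired; the labels do not say what a number marks. The model has no block, and calls that a replicate block changes against shGFP or both controls are given beside the results. The alternatives are named in the closing section.

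Named are Tardbp, the 10 members with the smallest adjusted p in each direction, 4 between controls, the 3 brightest and 3 dimmest, up to 5 for usage and up to 3 of each further list; other members were named by role after their values were seen. The members and lists were chosen with earlier results of these data known. On simulated data for shTardbp against both controls over 15803 genes, the test found 50 of 50 genes raised and 50 of 50 lowered by 1 (log2). For shifts of 0.5 it found 43 of 50 raised and 44 of 50 lowered genes. There were 6 false calls among 15603 genes. For usage the test found 155 of 200 probe sets raised or lowered by 1, counted without regard to direction, with 12 false calls among 98929. Both simulations drew independent normal noise and held no difference between control groups or code letters. Their false calls therefore do not cover errors from such differences.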

Additional observations from a re-analysis of the deposited data

Results flagged for a closer look

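In each of the 104 groups of 4 arrays (the shTardbp and shGFP arrays of Tardbp and the 51 members), the outermost array was compared with its nearest neighbour by Dixon's ratio, at its 95% critical value. Chance alone marks about 1 in 20 such groups, and 4 were marked here. Med12, of the kinase module, read 10.22 in shGFP 1 and between 10.06 and 10.08 in the other shGFP arrays (ratio 0.851). Med13l, of the same module, read 9.20 in shTardbp 1 and between 9.13 and 9.14 in the other 3 (ratio 0.877). Taf12 read 8.61 in shGFP 2 and between 8.18 and 8.24 in the other 3 (ratio 0.873), and without shGFP 2 it stayed below the threshold. Polr2h read 3.35 in shTardbp 2 and between 3.01 and 3.05 in the other 3 (ratio 0.872), all below the 25th percentile of the arrays.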

How the results depend on the processing

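Of the 19 falls against both controls, Med22, Med27, Med29 and Taf9 kept their call under all 20 alternatives. The alternatives were the median of probe sets, filters on dim probe sets or genes, quantile normalization again, centring, array weights, both blocks, subtraction of the neighbours and leaving out each array. The count of 19 ran from 17 to 20 without any single array (Taf13 being higher without shTardbp 4 or shGFP 5), that of 17 against shGFP from 14 to 21, that of 19 against shLuciferase from 17 to 22, and that of 6 between the controls from 4 to 9. The highest of these, 9, came without shLuciferase 4. Tardbp then ran from -0.44 to -0.37 (limma adjusted p 0.000232 to 0.00358). Blocking on the code letter gave 9, 7 and 12 members against both controls, shGFP and shLuciferase, and Tardbp stood at -0.29 (limma adjusted p = 0.173). Of all genes, 15.9% passed against both controls with that block. Array weights gave 14 members between the controls. Shares of all genes are not given for the other counts in this section, so a change in those counts cannot be read as particular to the members. Taf7 turned from 0.06 to -0.43 (adjusted p = 0.00697) with the neighbours subtracted. With the median of probe sets Med7, Med14, Med28 and Taf5 lost their calls and Med10 gained one (-0.42, adjusted p = 0.00673). In limma's usage test 0 of 586 probe sets passed with the letter block (73 at an unadjusted p under 0.05) and 0 with the replicate block (60), diffSplice called 3 other probe sets and neither of the 2, and leaving out single arrays gave 0 to 3: 0 without shTardbp 2, 3 or 4, shGFP 2, 3 or 5, or shLuciferase 1 or 2, 1 without shTardbp 1 or shGFP 1 and 3 without shLuciferase 4.

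With a replicate block the counts were 19 (18 lower, and Taf13 higher at 0.38, limma adjusted p = 0.00915), 18, 18 and 4, and Tardbp was at -0.39; against shLuciferase Med14 and Taf12 lost their calls and Med10 gained one, as it did between the controls. The low signals of Polr2h, Taf7l and Taf7 and the single probe sets of Polr2h and Taf13 limit what can be said of them. In Med29, 1 of the 2 probe sets was dim, which limits its result too.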
